A study of Mus musculus with 24 samples.

Results

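The response of CD4 and CD8 double-positive (DP) thymocytes to anti-CD3 was measured in mice labelled ElkKO, whose cells lack the transcription factor Elk-1 (gene Elk1). It is the mean log2 signal of the 3 arrays of ElkKO cells held on anti-CD3 for 30 min minus that of the 3 arrays of untreated ElkKO cells. These are 6 of the 24 Affymetrix Mouse430_2 arrays of a study of ternary complex factors in T cell selection. The other arrays are of wild-type (WT), SapKO and ElkSapKO cells in the same 2 states, again 3 arrays a group. Sap is read here as SAP-1 (gene Elk4), so ElkSapKO cells lack both factors. All 12 mice were male, of strain Black 6J and aged 8 weeks, and each gave 1 untreated and 1 stimulated array per the labels. DP cells were sorted with antibodies to CD4 and CD8, rested in warm medium and spun onto plates coated with anti-CD3 or left uncoated. Anti-CD3 binds the signalling chains of the T cell receptor and stands in for recognition of antigen. The labels do not describe the Elk1 allele, and the response is at a single time point.

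Elk-1, SAP-1 and Net (gene Elk3) are the ternary complex factors. They are ETS-family proteins that bind DNA beside serum response factor (Srf), which recognises the CArG box, and are switched on when ERK kinases phosphorylate them. Their best-known targets are immediate early genes, such as those of the Egr and Fos families, which are transcribed within minutes of a signal and need no new protein. In DP thymocytes the Egr factors are known for their part in positive selection, the step in which cells with a useful receptor are kept.

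Promoter sequences of 4 genes that rose without Elk-1, and of Srf itself, which did not pass the test, are shown because they carry the CArG box that Srf recognises. They are RefSeq sequences of mouse build GRCm38.p6, given 5′ to 3′ on the strand of the gene. Capitals mark the CArG box (CC, 6 bases of A or T, then GG) and the ETS-type motif CCGGAAG. Of the stretches printed, only that of Zfp36 holds CCGGAAG. Srf also has it, 122 to 116 bases before its start, outside the 30 bases printed. The first is 120 bases that end at the start of Zfp36 (chr7:28379229-28379348, minus strand), the second 120 bases that end at the start of Dusp5 (chr19:53529025-53529144, plus strand). Around the boxes of Egr2 (chr10:67537787-67537816, plus strand), Ncoa7 (chr10:30655900-30655929, minus strand) and Srf (chr17:46556215-46556244, minus strand), 30 bases each are given.
Zfp36: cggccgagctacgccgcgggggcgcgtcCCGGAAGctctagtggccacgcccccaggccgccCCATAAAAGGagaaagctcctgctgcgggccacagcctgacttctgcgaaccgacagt
Dusp5: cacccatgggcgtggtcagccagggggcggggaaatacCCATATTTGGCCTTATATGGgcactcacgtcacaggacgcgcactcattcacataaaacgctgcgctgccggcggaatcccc
Egr2: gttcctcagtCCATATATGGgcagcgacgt
Ncoa7: tgctctaaatCCTAATTTGGgtatgttcct
Srf: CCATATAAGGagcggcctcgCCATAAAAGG

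In ElkKO cells, anti-CD3 raised transcription factor genes of the Egr, Fos and Nr4a families, the phosphatase genes Dusp2 and Dusp5, and the activation antigen gene Cd69. The rises of Egr2, Egr1, Nr4a1 and Cd69 were the largest in the gene table. The words rose, fell and called are kept for genes with an adjusted p under 0.05 in limma over 18193 genes. In all, 36 genes rose, 0.198% of those tested, and 1 gene, Rag1, fell, 0.0055% of those tested. The rise was at least 2-fold for 29 genes and at least 8-fold for 8. Without untreated array 2 or untreated array 3 21 genes rose, and without stimulated array 2 23 rose. At an unadjusted p under 0.05, 328 genes were higher and 137 lower. These 465 of 18193 genes are fewer than that threshold alone would pass if no gene changed. The 3 stimulated arrays lay above the 3 untreated arrays for all 36 genes, a separation seen for 6.39% of all genes. In bulk RNA a change in the number of responding cells and a change in RNA per cell cannot be told apart.

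**Figure D1:**
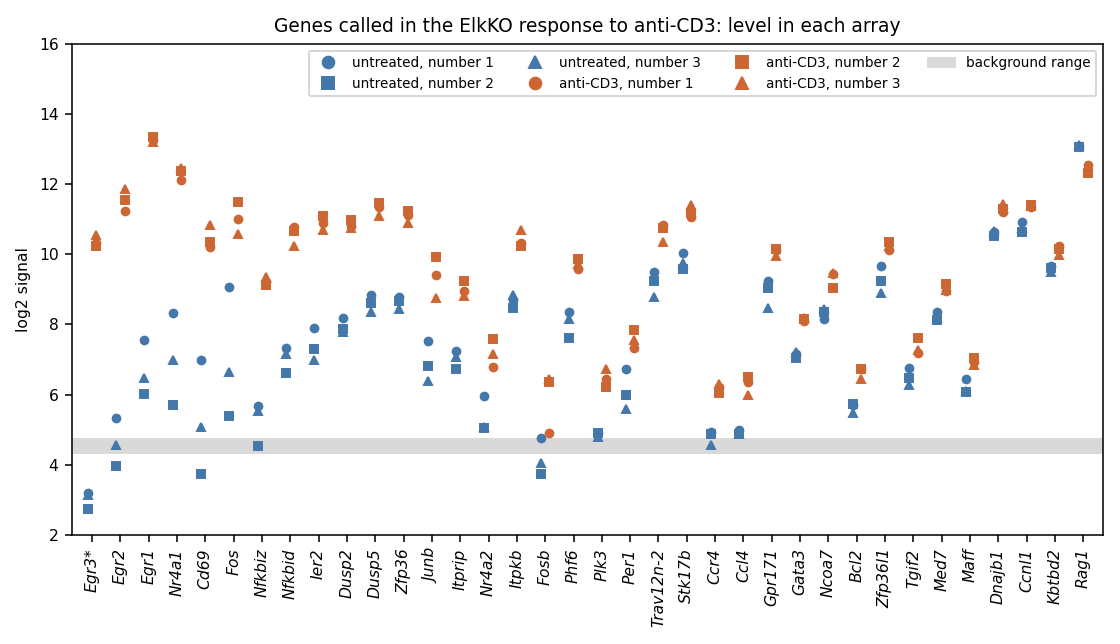
Levels of the named genes called in ElkKO cells and of the second Egr3 probe set (marked with an asterisk), as log2 signal on the y axis for each of the 3 untreated and 3 stimulated arrays, ordered by size of the change. The grey band is the range of the background level. The 3 stimulated arrays sit above the 3 untreated arrays for every gene shown but Rag1, where they sit below.

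The Egr genes encode zinc-finger transcription factors. Egr1 was at 7.55, 6.02 and 6.47 (log2 signal) on the untreated arrays of mice 1, 2 and 3 and at 13.27, 13.36 and 13.19 on the stimulated arrays. The stimulated arrays were close together, while untreated array 1 was the highest at rest. Its log2 change was 6.59 ± 0.266 (SE, n = 3 and 3, adjusted p = 6e-13), or 96.5-fold.

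Egr2 was at 5.33, 3.96 and 4.57 at rest and at 11.24, 11.54 and 11.88 after anti-CD3. Its log2 change was 6.93 ± 0.322 (adjusted p = 5.47e-12). The resting level was below background on 1 of 3 arrays. Background here is the 95th percentile, on each array, of 44 probe sets for olfactory receptors, genes not known to be used by thymocytes. With that level as a floor, Egr2 rose at least 106-fold.

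Egr3, which acts beside Egr1 and Egr2 in thymocyte selection, was measured by probe sets that disagreed. The brightest, which stands for the gene in the gene table, was at 6.04, 6.11 and 5.73 at rest and 6.68, 6.56 and 6.54 after anti-CD3, a log2 difference of 0.64 (adjusted p = 0.907). The second probe set was at 3.19, 2.73 and 3.13 at rest, below background on all 3 arrays, and at 10.32, 10.23 and 10.56 after anti-CD3. These groups are far apart, and the log2 change of the second probe set was 7.35 ± 0.253 (adjusted p = 2.2e-13 over 45037 probe sets), a rise of at least 57.5-fold. Over all probe sets 65 rose (0.144%) and 3 fell (0.00666%). This set was singled out after the values were seen.

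Fos, Fosb and Junb encode subunits of AP-1, a dimeric activator of transcription. Fos was at 9.06, 5.38 and 6.66 at rest and at 11.02, 11.50 and 10.57 after anti-CD3. Its resting levels were spread widely, with untreated array 1 only 1.51 log2 units below the lowest stimulated array. Its log2 change was 4.0 ± 0.555 (adjusted p = 0.000437), or 16-fold.

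Junb went from 7.54, 6.81 and 6.39 to 9.42, 9.92 and 8.75, a log2 change of 2.45 ± 0.257 (adjusted p = 5.92e-06). Fosb was at 4.77, 3.73 and 4.04 at rest, below background on 2 of 3 arrays, and at 4.91, 6.36 and 6.44 after anti-CD3. Stimulated array 1 of Fosb was barely above untreated array 1, and the other stimulated arrays were well above. The log2 change of Fosb was 1.72 ± 0.347 (adjusted p = 0.0331). Its call was lost without untreated array 2 or 3 or stimulated array 2 or 3 (adjusted p from 0.232 to 0.355), and in the fit with mouse as a block (0.417). Maff, a small Maf protein that pairs with AP-1 type factors, rose by 0.74 on the log2 scale (adjusted p = 0.00731), a call lost without untreated array 2 or 3 or stimulated array 2 (0.0775 to 0.0961).

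Nr4a1 (Nur77) is an orphan nuclear receptor that rises with T cell receptor signal strength and takes part in negative selection. It was at 8.33, 5.71 and 6.98 at rest and at 12.12, 12.38 and 12.47 after anti-CD3. The stimulated arrays differed little, and the resting arrays spanned over 2 log2 units. The log2 change was 5.31 ± 0.446 (adjusted p = 1.4e-07), or 39.7-fold. Its relative Nr4a2 rose by 1.82 ± 0.309 (adjusted p = 0.00632), a call lost without untreated array 2 or 3 or stimulated array 2 (0.0692 to 0.0779) and with probe sets averaged (0.0507), 3 of whose other 5 sets stood at 0.02 to 0.52.

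Dusp2 and Dusp5 encode phosphatases that act on MAP kinases in the nucleus. Dusp5 was at 8.84, 8.60 and 8.36 at rest and at 11.35, 11.47 and 11.09 after anti-CD3, a log2 change of 2.71 ± 0.197 (adjusted p = 1.06e-08). Dusp2 was at 8.17, 7.86 and 7.77 at rest and at 10.82, 10.99 and 10.75 after anti-CD3, a log2 change of 2.92 ± 0.198 (adjusted p = 5.59e-09). Both genes had tight groups of arrays that lay more than 2 log2 units apart. Dusp6, a cytoplasmic ERK phosphatase, did not pass at 1.42 (adjusted p = 0.124), nor did Dusp1 at 0.95 (adjusted p = 0.13).

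Nfkbid and Nfkbiz encode nuclear IkB proteins, which modify NF-kB at its target genes. Nfkbiz was at 5.67, 4.53 and 5.54 at rest, below background on 1 of 3 arrays, and at 9.22, 9.13 and 9.35 after anti-CD3. Its log2 change was 3.99 ± 0.256 (adjusted p = 2.37e-09), at least 15.8-fold. Nfkbid was at 7.32, 6.61 and 7.16 at rest and at 10.78, 10.66 and 10.23 after anti-CD3, and its log2 change was 3.53 ± 0.251 (adjusted p = 7.58e-09). For both genes, the lowest stimulated array was over 2 log2 units above the highest untreated array.

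Itpkb encodes a kinase of inositol trisphosphate that thymocytes need for positive selection, and Itprip a protein that binds the receptor of the same messenger. Itpkb was at 8.69, 8.48 and 8.83 at rest and at 10.32, 10.25 and 10.70 after anti-CD3, a log2 change of 1.75 ± 0.272 (adjusted p = 0.00194), while its other probe set stood at 0.09. Itprip rose by 1.99 ± 0.209 (adjusted p = 5.92e-06), the stress-responsive kinase gene Plk3 by 1.60 ± 0.230 (0.00071), and Stk17b (DRAK2), a kinase that raises the threshold of T cell receptor signalling, by 1.42 ± 0.246 (0.00709). The call of Stk17b was lost without untreated array 2 or 3 or stimulated array 3 (0.0546 to 0.0848).

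Zfp36 (tristetraprolin) and Zfp36l1 encode proteins that bind AU-rich elements and speed the decay of messenger RNA. Zfp36 was at 8.78, 8.66 and 8.45 at rest and at 11.12, 11.24 and 10.90 after anti-CD3. Its log2 change was 2.46 ± 0.174 (adjusted p = 7.58e-09), or 5.5-fold. The spread within each group was under 0.4 on the log2 scale. Zfp36l1 rose by 0.96 ± 0.198 (adjusted p = 0.0397), a call lost in the block fit (0.228) and without any array but untreated array 1 (0.109 to 0.497). Ier2, an immediate early gene of uncertain function, was at 7.91, 7.31 and 6.98 at rest and at 10.88, 11.08 and 10.69 after anti-CD3, a log2 change of 3.48 ± 0.242 (adjusted p = 6.77e-09).

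Cd69 encodes an early activation antigen of the T cell surface that holds cells in the thymus by removing a receptor for sphingosine phosphate. It was at 6.98, 3.74 and 5.09 at rest, below background on 1 of 3 arrays, and at 10.21, 10.34 and 10.85 after anti-CD3. Untreated array 1 stood over 3 log2 units above untreated array 2, and all stimulated arrays stood above both. The log2 change was 5.20 ± 0.544 (adjusted p = 5.92e-06), at least 30.4-fold.

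Ccl4, a chemokine, was at 5.0, 4.89 and 4.89 at rest and at 6.36, 6.51 and 6.00 after anti-CD3, a log2 change of 1.37 ± 0.189 (adjusted p = 0.000429). Ccr4, a chemokine receptor that appears on thymocytes after positive selection, was at 4.95, 4.87 and 4.55 at rest and at 6.22, 6.03 and 6.31 after anti-CD3, a log2 change of 1.40 ± 0.285 (adjusted p = 0.0375). Its call was lost without any one of the ElkKO arrays (0.0832 to 0.322) and in the block fit (0.379). Gpr171, an orphan-type G protein-coupled receptor, rose by 1.16 ± 0.164 (adjusted p = 0.000548). Trav12n-2, a variable segment of the T cell receptor alpha chain with close copies whose RNA a probe set may also detect, rose by 1.47 ± 0.258 (0.00788), a call lost without untreated array 3 or stimulated array 1 or 2 (0.0752 to 0.113).

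Among survival and fate genes, Bcl2, which blocks apoptosis, was at 5.70, 5.74 and 5.47 at rest and at 6.74, 6.72 and 6.45 after anti-CD3. The change was nearly equal in the 3 mice, 1.00 ± 0.21 on the log2 scale (adjusted p = 0.0483). Its call was lost without any one of the ElkKO arrays (0.0798 to 0.397) and in the block fit (0.071), and its 5 probe sets gave log2 differences of 1.00, 0.10, 2.29, 2.61 and −0.31. Gata3, the transcription factor that directs the CD4 lineage, was at 7.17, 7.06 and 7.21 at rest and at 8.10, 8.16 and 8.18 after anti-CD3, a log2 change of 1.00 ± 0.191 (adjusted p = 0.0192), also lost without any one array (0.0703 to 0.153).

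The other named genes that rose were Phf6, a chromatin reader (1.69, adjusted p = 6.25e-05), the clock gene Per1 (1.47, 0.0087), the nuclear receptor coactivator Ncoa7 (1.00, 0.0143), the repressor Tgif2 (0.85, 0.028), the Mediator subunit Med7 (0.81, 0.0167), the Hsp70 cochaperone Dnajb1 (0.70, 0.00776), the cyclin Ccnl1 (0.60, 0.0331) and Kbtbd2 (0.54, 0.0327). The probe sets of Phf6 and Ncoa7 disagreed, with other sets of Phf6 at 0.02 and −0.40 and another of Ncoa7 at −0.29. Both calls were lost when probe sets were averaged (adjusted p = 1 for each). Leaving out single ElkKO arrays ended the calls of Per1 (untreated 2 or 3 or stimulated 2, 0.0848 to 0.124), Tgif2 (untreated 2 or 3 or stimulated 2 or 3, 0.0782 to 0.32), Dnajb1 (untreated 2 or stimulated 3, 0.0782 to 0.0877) and Ccnl1 (any but untreated 1, 0.114 to 0.341). Likewise lost were Med7 (any but untreated 1, 0.0531 to 0.156), Kbtbd2 (any but stimulated 3, 0.0527 to 0.32) and Ncoa7 (any but stimulated 2, 0.0515 to 0.122). In the block fit the adjusted p was 0.0703 for Per1, 0.087 for Ncoa7, 0.0554 for Tgif2, 0.071 for Med7 and 0.0882 for Ccnl1. With numbers 1 and 2 exchanged in the block, 4 of these calls were kept (Per1 0.0178, Ncoa7 0.0499, Tgif2 0.0151 and Med7 0.0371), and that of Ccnl1 was not (0.0559). Centring each array on its median ended the calls of Dnajb1 (0.0761), Fosb (0.0566), Kbtbd2 (0.292), Med7 (0.189), Ncoa7 (0.123) and Zfp36l1 (0.248), and a trended robust prior that of Bcl2 (0.0539). Fitted on the 6 ElkKO arrays alone, with fewer residual degrees of freedom, 12 named calls were lost (adjusted p from 0.062 to 0.444), among them those of Fos (0.205), Gpr171 (0.108) and Rag1 (0.112). Of the 35 named genes called, including Rag1, 18 kept their call whichever ElkKO array was left out, and none changed direction.

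Rag1, which with Rag2 cuts the T cell receptor genes for rearrangement, was the gene that fell. It was at 13.08, 13.06 and 13.13 at rest and at 12.55, 12.33 and 12.53 after anti-CD3. The groups did not overlap, as was true in the same direction for 4.56% of all genes, and the log2 change was −0.62 ± 0.106 (adjusted p = 0.00643). The call was lost without untreated array 3 (0.0566) or stimulated array 2 (0.0781). Nearest to the threshold among other lower genes were Txnip, an inhibitor of thioredoxin and glucose uptake, at −0.92 (adjusted p = 0.0768), and Socs3, a cytokine signal inhibitor, at −1.16 (0.0842). With mouse as a block, 3 genes were lower, Rag1, Txnip and the mTOR inhibitor Ddit4, and 32 were higher.

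Several probe sets outside the gene table were called for genes whose brightest probe set was not. Besides Egr3 these included sets of Tespa1, an adaptor of T cell receptor calcium signalling that thymocytes need for positive selection (2.10), the amino acid transporter Slc16a10 (1.24), the ETS repressor Etv3 (1.00) and the histone gene H2bc21 (−0.85), all chosen after their values were seen. Tespa1 was at 7.41, 7.23 and 7.90 at rest and at 9.36, 9.67 and 9.80 after anti-CD3 on that probe set, with adjusted p = 0.000246.

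Counted by list, the TCF-SRF list of immediate early genes had 9 of 28 measured members called higher and none called lower. Its median log2 difference was 0.725 beside 0.0159 over all genes, and 25 of the 28 members had a positive difference. Its called members were Egr1, Egr2, Fos, Fosb, Junb, Ier2, Nr4a1, Dusp5 and Zfp36. The same list had 12 members called in WT, 12 in SapKO and 11 in ElkSapKO, with medians of 0.965, 0.543 and 0.768. None of the 24 MRTF-SRF genes, the cytoskeletal targets that Srf serves with another set of partners, was called, and their median was 0.0736. With 0.198% of all genes called higher, a list of 24 would mostly hold no called gene, so this zero says little. Srf itself was at 7.28, 7.30 and 7.12 at rest and at 7.85, 7.81 and 8.49 after anti-CD3. Its groups did not overlap, and its log2 difference of 0.81 did not pass (adjusted p = 0.124).

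For the other signalling lists the counts were lower, and each is to be read beside the 0.198% of all genes that rose and the 0.0055% that fell. In the AP-1 list 4 of 15 rose (Fos, Fosb, Junb and Maff), in the Egr list 2 of 12, in the Nr4a and death list 3 of 13 (Nr4a1, Nr4a2 and Bcl2), and in the ERK feedback list 2 of 20. The NF-kB list gave 2 of 19 (Nfkbid and Nfkbiz), the list of mRNA decay and early response genes 3 of 20, and the cytokine list 1 of 18 (Ccl4). In the positive selection list 5 of 27 rose (Cd69, Gata3, Bcl2, Ccr4 and Egr1). None of the 17 NFAT and calcium targets, 26 T cell receptor components, 26 quiescence genes, 18 cytokine signal inhibitors, 18 interferon genes or 29 cell cycle genes was called, nor was any marker of another cell type. At those shares, lists of this size would hold no called gene in most cases, so these zeros say little about the lists. The adhesion and selection marker Cd5, which tracks receptor signal strength, was at 7.70, 7.21 and 6.66 at rest and at 8.18, 8.22 and 8.08 after anti-CD3, a log2 difference of 0.97 that did not pass (adjusted p = 0.52).

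**Figure D2:**
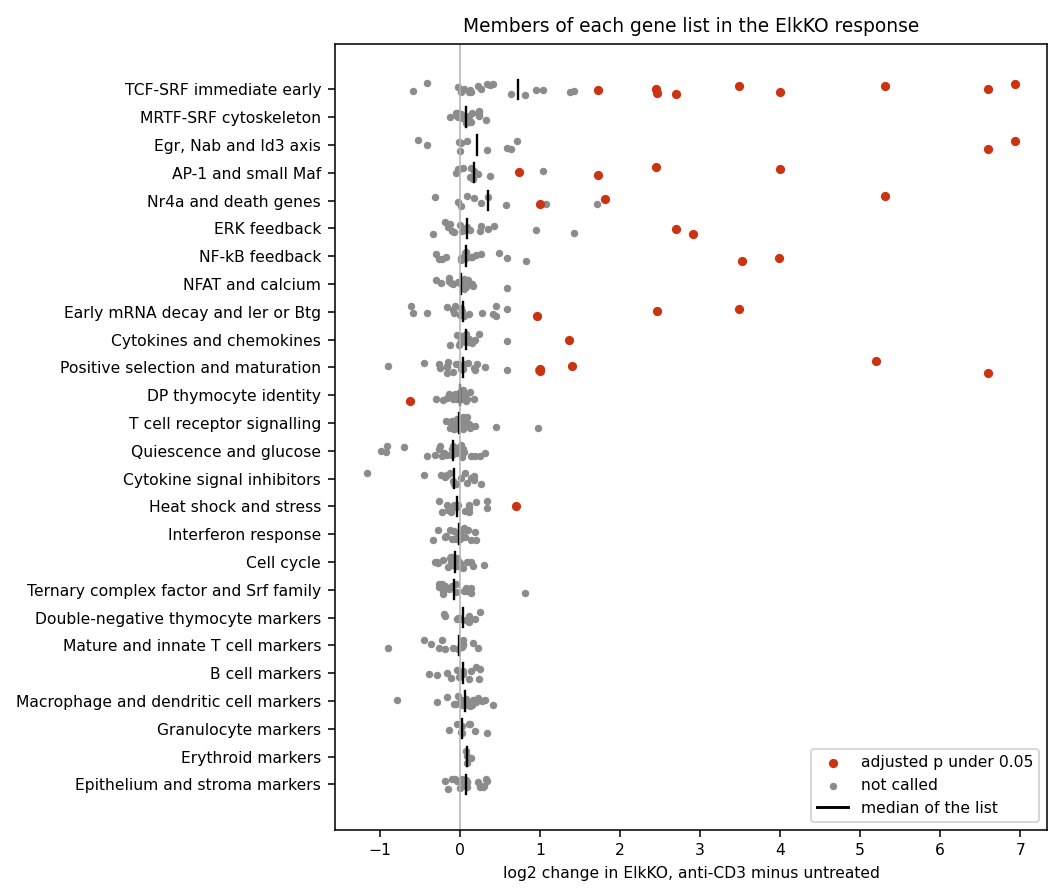
Log2 differences (x axis), anti-CD3 minus untreated, of the members of each gene list in ElkKO cells, with called members in red and the median of each list as a bar. The TCF-SRF list holds 9 called members of 28 and the MRTF-SRF list none of 24, where 0.198% of all genes rose. At that share a list of 24 would mostly hold none.

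**Figure D3:**
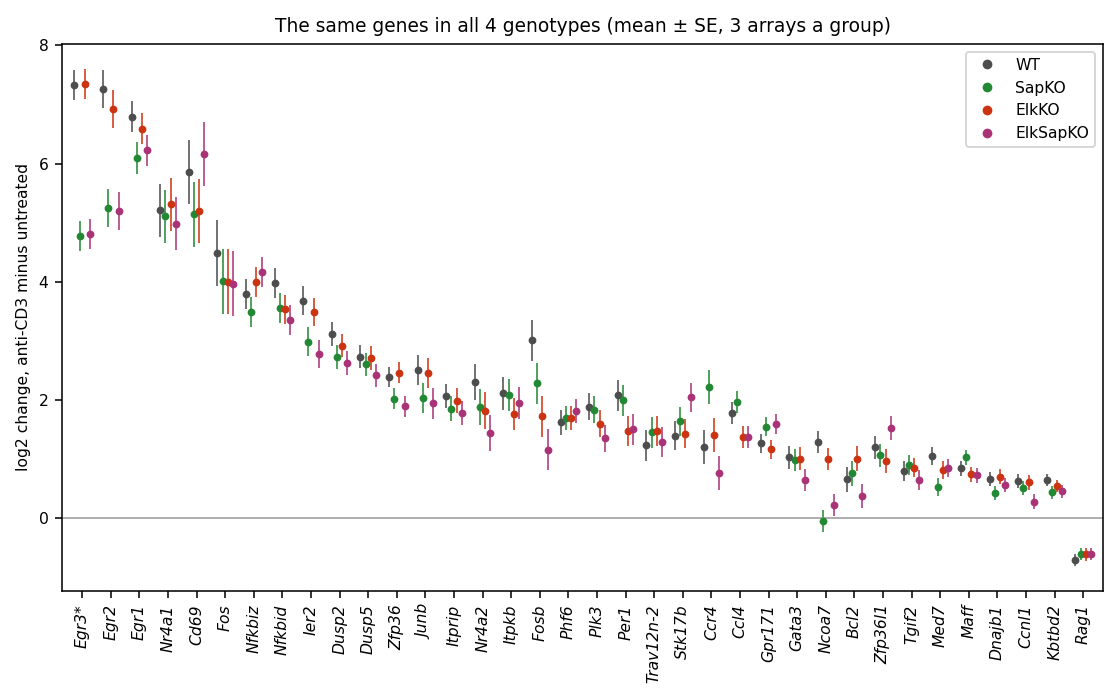
Log2 change after anti-CD3 (y axis, mean ± SE from limma, 3 arrays in each state) of the same genes and of the second Egr3 probe set (asterisk) in WT, SapKO, ElkKO and ElkSapKO cells. Resting Egr3 was below background, so its points are not measured folds. ElkKO lies beside WT for Egr3 and Egr2 (7.35 and 6.93 against 7.33 and 7.26), above SapKO and ElkSapKO.

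Set beside WT, no gene's response in ElkKO cells differed at an adjusted p under 0.05 (0 of 18193, or 0.0%), nor did a probe set (0 of 45037). At an unadjusted p under 0.05 there were 619 probe sets, fewer than that threshold alone would pass if no response differed. Egr1, at a log2 change of 6.80 in WT, differed by −0.20 (ElkKO minus WT, 95% interval −0.98 to 0.58). Egr2, at 7.26 in WT, differed by −0.32 (−1.27 to 0.62). Nr4a1 differed by 0.10 (−1.21 to 1.41), Cd69 by −0.66 (−2.26 to 0.93) and Fos by −0.48 (−2.11 to 1.15). The intervals are narrowest for Egr1 and widest for Fos, whose resting levels varied most. They bound the differences and do not show equal responses.

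The largest shortfall among the named genes called in ElkKO was that of Fosb. It rose by 3.01 on the log2 scale in WT and by 1.72 in ElkKO, a difference of −1.29 (95% interval −2.30 to −0.27, unadjusted p = 0.0159, adjusted p = 1). Per1 rose by 2.08 in WT and by 1.47 in ElkKO, a difference of −0.60 (−1.37 to 0.16). In levels, 4 genes were higher (0.022%) and 14 lower (0.077%) in untreated ElkKO than in untreated WT, and 8 higher (0.044%) and 32 lower (0.176%) after anti-CD3. None of the named genes that rose or fell in ElkKO was among them.

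**Figure D4:**
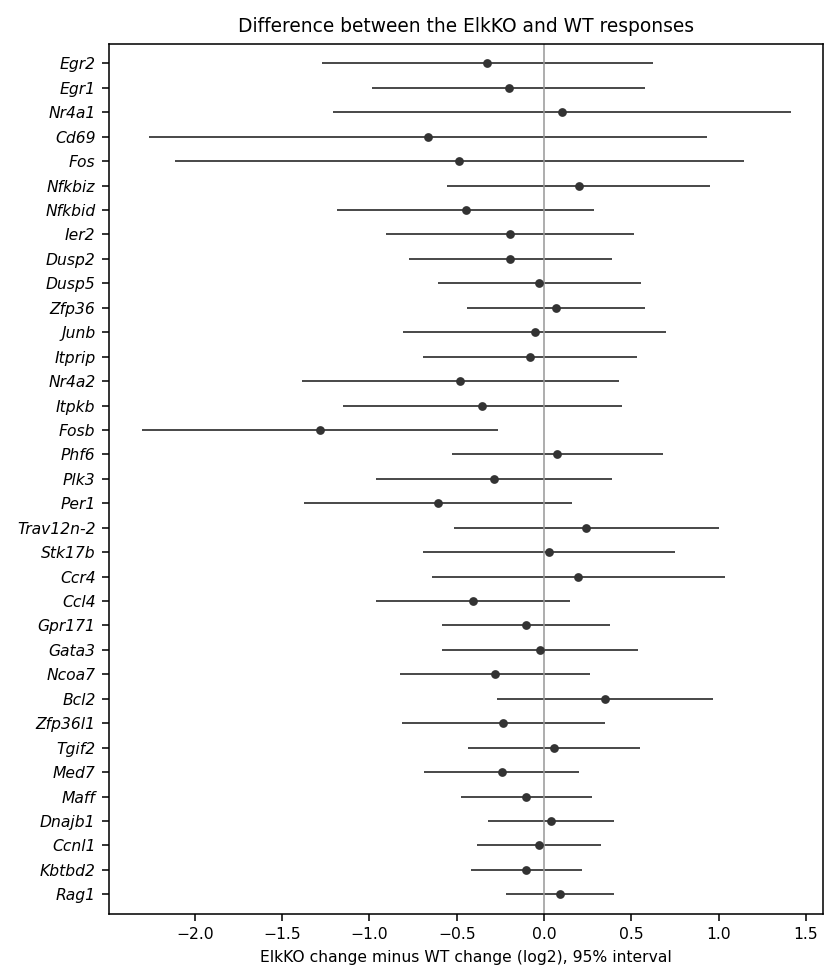
Difference of the response of ElkKO cells from that of WT cells (log2, ElkKO minus WT) for the named genes called in ElkKO cells, with 95% intervals from limma. Fosb lies at −1.29 (−2.30 to −0.27), and no difference passed at an adjusted p under 0.05.

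The genes called in ElkKO were largely called in WT too. Of the 36, 34 also rose in WT (94.4% of the ElkKO genes and 56.7% of the 60 WT genes, where 0.33% of all genes rose). The share was 83.3% in SapKO and 77.8% in ElkSapKO (30 and 28 genes, where 0.341% and 0.33% rose), and 26 rose in all 4 genotypes. The exceptions were Ccr4, with a log2 difference of 1.2 in WT (adjusted p = 0.093), and Bcl2, with 0.65 (0.577). On its brightest probe set Bcl2 was called in no other genotype. Another of its probe sets rose by 2.61 in ElkKO and stood at 2.77 in WT, 2.90 in SapKO and 2.74 in ElkSapKO, so its probe sets do not set ElkKO apart. The 26 genes that rose in WT and were not called in ElkKO were all higher after anti-CD3 in ElkKO, 25 of them at an unadjusted p under 0.05, with a median log2 difference of 0.637 in ElkKO and 1.04 in WT. Thus a call in one genotype and not in the other was no test of a difference, and for none of these genes did that difference pass.

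Genes chosen on neither group of ElkKO or WT arrays give a comparison of size. For the 62 genes that rose in SapKO (0.341% of all genes), the response was smaller in ElkKO than in WT for 51, with medians of 1.03 and 1.25 and a median difference of −0.202. Over all genes 52.0% were smaller, with a median of −0.00757. None of the 62 differences passed, and 3 had an unadjusted p under 0.05. The stimulated level was lower in ElkKO than in WT for 51 of the 62 (median −0.288), and the median difference at rest was −0.061. The share of all genes with a lower stimulated level is not given, so this count has nothing to be read against. Without untreated ElkKO array 1, the response was smaller for 39 of 62 and its median difference was −0.0748. Without untreated ElkKO array 3 it was −0.312 (53 of 62), and without untreated WT array 1 −0.320 (55 of 62). With any other WT or ElkKO array left out, 44 to 57 were smaller. Untreated ElkKO array 1 was the highest of the 3 at rest for 29 of the 36 genes that rose in ElkKO. Its part in the smaller response was not tested. This choice of genes, by the SapKO response, was added after the data were seen.

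Against SapKO and ElkSapKO cells, Egr3, Egr2 and, by less, Egr1 had higher mean levels in ElkKO after anti-CD3. Only for Egr3 is a test of these levels given. In the gene table no response differed from either (0 of 18193 for each, or 0.0%). On its second probe set, Egr3 was at 10.17, 10.71 and 10.41 on the stimulated WT arrays and at 7.87, 8.33 and 8.14 in SapKO. In ElkSapKO it was at 7.87, 7.92 and 6.84, so the ElkKO arrays (10.23 to 10.56) overlapped WT and lay above every SapKO and ElkSapKO array. At rest this probe set was below background on all 12 arrays of the 4 genotypes.

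Because no resting level of this probe set was measured above background, the stimulated levels were compared directly, a comparison added after the values were seen. Egr3 was higher in stimulated ElkKO than in stimulated SapKO by 2.26 on the log2 scale (95% interval 1.73 to 2.78, adjusted p = 6.67e-05 over 45037 probe sets). It was higher than in ElkSapKO by 2.83 (2.3 to 3.35, adjusted p = 3e-06) and stood at −0.06 from WT (−0.59 to 0.47, adjusted p = 0.955). Of all probe sets, 0.235% differed between stimulated ElkKO and SapKO, 0.0355% between ElkKO and ElkSapKO and 0.144% between ElkKO and WT. Both Egr3 calls held in each of 28 alternatives, single arrays left out included, at 2.14 to 2.36 against SapKO (largest adjusted p = 0.00118) and 2.47 to 3.02 against ElkSapKO (0.00461). Most of these left out an array of neither stimulated group compared, which cannot move the fitted difference itself.

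The fitted differences of response, which also take in the unmeasured resting levels, were less secure. Egr3 was the 1 probe set of 45037 called between the responses of ElkKO and SapKO (0.00222%), and the 1 called between ElkKO and ElkSapKO (0.00222%), with adjusted p = 0.0236 and 0.0284. Both of these calls were lost without any one of the ElkKO arrays (adjusted p from 0.0586 to 0.15 and from 0.0692 to 0.179) and in the block fit (0.44 and 0.547). They were lost too without untreated array 2 or 3 or stimulated array 1 or 3 of SapKO (0.0769 to 0.137), and without untreated array 1 or 3 of ElkSapKO (0.0792 and 0.129).

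Egr2 rose by 5.25 in SapKO and 5.20 in ElkSapKO. The ElkKO response was 1.68 larger than in SapKO (0.73 to 2.62, unadjusted p = 0.00133, adjusted p = 1) and 1.73 larger than in ElkSapKO (0.79 to 2.68, unadjusted p = 0.000994, adjusted p = 0.808). Neither difference passed over the gene table. Egr1 rose by 6.09 and 6.22 in these genotypes, near its 6.59 in ElkKO. After anti-CD3, Egr1 was at 13.19 to 13.36 in ElkKO, above every SapKO array (12.55 to 12.74). Every ElkSapKO array was lower still (12.04 to 12.42). No test of these Egr1 levels is given here, nor the share of all genes whose arrays separate this way.

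Ncoa7, whose promoter window holds a CArG box, was at 8.16, 8.36 and 8.43 at rest in ElkKO and at 9.44, 9.04 and 9.47 after anti-CD3. In SapKO it was at 7.15, 7.12 and 7.12 at rest and at 7.04, 7.28 and 6.91 after anti-CD3, groups that overlap. Its response was 1.06 larger in ElkKO than in SapKO (0.51 to 1.60, unadjusted p = 0.000581, adjusted p = 1). Ccl3, a chemokine, went the other way. In ElkKO it was at 3.52, 3.55 and 3.36 at rest and at 3.34, 3.71 and 3.38 after anti-CD3, below background, and in SapKO at 3.29, 3.66 and 3.32 and then at 4.57, 5.59 and 4.90. With ElkKO below background in both states the size of this difference is not measured, and it did not pass (adjusted p = 0.247).

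Promoter windows, the 250 bases before each RefSeq start, were found for 28 of the 36 genes, some with several starts. A CArG box stood in a window of 4 of these genes (14.3%), Dusp5, Egr2, Ncoa7 and Zfp36, and of 1.43% of the 14452 genes on the array with a window. Zfp36 has its box 58 to 49 bases before the start, Ncoa7 52 to 43 and Egr2 72 to 63, while Dusp5 has 2 boxes end to end. The letters TGACGTCA, bound by CREB-type factors, stood in windows of Ccnl1, Maff and Nfkbid (10.7%, against 2.5%), and CCGGAAG in those of Per1 and Zfp36 (7.14%, against 11.8%). The Egr-type motif GCGNGGGCG stood in a window of 25% of the genes that rose and of 8.59% of all. The AP-1 motif TGANTCA (7.14% and 6.7%) and GGGNNNNNCC, an NF-kB type pattern (71.4% and 61.1%), were also searched, as were TATAAA (14.3% and 10.5%) and the ETS core GGAA, which CCGGAAG contains (all 28, and 94.1%). Both strands were read, and a match describes letters only.

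Pairing of the ElkKO arrays by the mouse numbers in the labels was in question for numbers 1 and 2. After the group means were removed, untreated array 1 correlated across genes at 0.07 with stimulated array 1 and at 0.557 with stimulated array 2. Untreated array 2 correlated at 0.441 with stimulated array 1 and at 0.137 with stimulated array 2. Untreated array 3 correlated at 0.744 with stimulated array 3. These are correlations over genes, which are not independent, and deviations from a mean of 3 arrays are themselves negatively related across numbers.

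**Figure D5:**
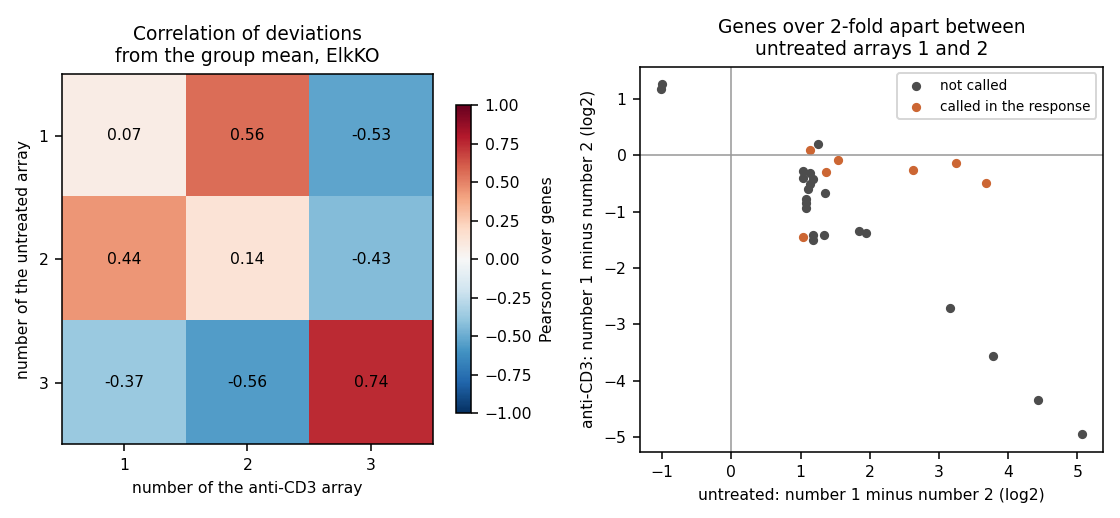
Pairing of the ElkKO arrays by mouse number. Left, Pearson r over genes between the deviations of untreated (rows) and stimulated (columns) arrays from their group means, and right, the log2 difference of array 1 from array 2 at rest (x axis) and after anti-CD3 (y axis) for the 29 genes over 2-fold apart at rest, with 27 of opposite sign. Untreated 1 goes with stimulated 2 (0.557) and untreated 2 with stimulated 1 (0.441) more than with their own numbers (0.07 and 0.137), while untreated 3 goes with stimulated 3 (0.744).

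Single genes show the same crossing. Of 29 genes that differed more than 2-fold between untreated arrays 1 and 2, 2 (6.9%) differed in the same direction between stimulated arrays 1 and 2, and 27 in the opposite direction. Between mice 1 and 3 the share in the same direction was 89.5%, and between mice 2 and 3 95.4%. In the other genotypes the lowest such share was 53.5%. Examples chosen after their values were seen are Hspa1b, an inducible Hsp70 gene, and Slc15a2, a peptide transporter. Hspa1b was at 9.35, 4.28 and 7.55 at rest and at 4.27, 9.22 and 7.55 after anti-CD3. Slc15a2 was at 7.88, 3.45 and 3.19 at rest and at 3.34, 7.68 and 3.35 after anti-CD3. In both genes the levels of untreated arrays 1 and 2 return on the stimulated arrays with the numbers exchanged, and array 3 stays where it was.

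Jun, the AP-1 partner of Fos, chosen in the same way, did likewise, at 10.38, 6.60 and 8.86 at rest and at 6.82, 10.38 and 8.57 after anti-CD3, so its mean hardly moved. Among the 19 heat shock and stress genes, 16 were higher on untreated array 1 than on untreated array 2 and 16 higher on stimulated array 2 than on stimulated array 1, 15 of them both. Only Dnajb1 of that list rose with anti-CD3. Comparison of group means does not use the numbers, so the changes given above are the same under either pairing. Over the 36 genes, the median SD of the within-mouse changes was 0.322 with the labelled pairs and 0.245 with numbers 1 and 2 exchanged, smaller in 28. The block fit with the exchanged numbers called 42 genes higher and 5 lower (Rag1, Txnip, Ddit4, Socs3 and Ccr7). Which of these arrays would carry another animal's number cannot be told apart from the values, and the reason was not tested.

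As checks of the labels, Elk1 itself lay near background on all ElkKO arrays (4.69, 4.46 and 4.03 at rest; 4.69, 4.52 and 4.40 after anti-CD3). At rest its probe sets stood at −0.55, −0.63 and 0.03 against WT on the log2 scale (adjusted p = 0.268 for the first and 0.231 for the second), so the arrays do not settle the knockout, and where the probes lie relative to the deleted part is not known here. Elk4 was at 10.58 to 10.88 at rest and 10.54 to 10.99 after anti-CD3. Each of the 9 DP marker genes was above background, at 6.21 to 13.13 over the 6 ElkKO arrays. All 6 ElkKO arrays were below background for 2 of 5 B cell, 4 of 7 macrophage and dendritic, 2 of 6 granulocyte, 2 of 3 erythroid, 2 of 7 epithelial and 1 of 7 mature T cell markers, and for none of 5 double-negative thymocyte markers (4.24 to 6.80). The 3′ to 5′ difference of Actb, a sign of RNA quality, was 0.381 to 0.654 in ElkKO, 0.151 to 0.359 in WT, 0.166 to 0.240 in SapKO and 0.545 to 1.05 in ElkSapKO. The dap spike-in, an added control RNA, was at 9.52 to 10.3 in ElkKO, 6.89 to 9.79 in WT, 6.99 to 9.62 in SapKO and 10.1 to 10.7 in ElkSapKO. Their part in the differences between genotypes was not tested. Actb values in SapKO all lay below those of ElkKO, and in ElkSapKO they reached above them. Genotype and this measure therefore cannot be told apart between ElkKO and SapKO, nor between ElkKO and WT, for Egr3 as for other genes. Between ElkKO and ElkSapKO the ranges of this measure overlapped in part, and its part in their differences was not tested. One library, untreated ElkSapKO array 2, stood apart in its spread of relative signal (0.783, against 0.383 or less on the other 23), and without it 47 genes rose and 7 fell in ElkKO. With 3 arrays a group, precision is limited by their number.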

How the data were processed

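The deposited values were log2 signals of 45101 Mouse430_2 probe sets on 24 arrays, made by the authors with RMA in the affy package per the submitters' processing notes. RMA corrects background, quantile normalizes arrays and summarises probes, so it can hide a shift of all genes and compress low signals. Neither has a version in the notes. Missing values and value columns of no sample both numbered 0. Control probe sets (64) were left out. Genes were named by the platform annotation, and each gene with a single symbol took its brightest probe set over the 24 arrays, giving 18193 genes, 18032 of them matched to RefSeq GRCm38.p6 symbols. A mean for each of 8 groups was fitted in limma 3.58.1 (R 4.3.3) with 16 residual degrees of freedom. Two-sided p-values were adjusted by Benjamini-Hochberg within each contrast, and 95% intervals are unadjusted. Tables and figures used Python 3.11.15, pandas 2.3.3, numpy 2.4.6 and matplotlib 3.10.9.

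"At least" folds set each dim array at the higher of its own value and its background level. Named genes were the called genes of the response (up to 40 higher and 10 lower), up to 5 each way nearest the threshold, the 3 with the smallest adjusted p in each difference from another genotype, up to 4 a list, and Elk1, Elk3, Elk4 and Srf. Clone-like symbols were counted and not named. The members, the 26 gene lists (34 listed genes unmatched) and the tests were chosen with earlier results of these data known. Of 12 animals, the labels give 1 number to each untreated and stimulated pair. The 12 pairs correlated at 0.0136 to 0.744 after group means were removed, 8 above 0.1, so a block for mouse was fitted as an alternative, with 8 residual degrees of freedom. Other alternatives were array weights, median centring, averaged probe sets, a filter at the median level, a trended robust prior, only the genotypes compared, and each array left out. On data simulated for this response with 200 of 18193 genes changed, more than were called here, limma recovered 88.4% of 2-fold and 99.8% of 4-fold changes, and 5.68% of calls were false. The simulated noise was independent, with 1 SD per gene on all arrays. It held no outlying array and no deviations shared between arrays, so these rates cannot be carried over to the real arrays.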

Additional observations from a re-analysis of the deposited data

Results flagged for a closer look

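On its second probe set, Egr3 was the only probe set with a called difference of response between ElkKO and SapKO (2.58 as fitted, on the log2 scale) or between ElkKO and ElkSapKO (2.54). These values include resting levels below background in all genotypes, and the stimulated levels alone differed by 2.26 and 2.83. Other genes are listed because all 3 mice of ElkKO moved one way and all 3 mice of another genotype the opposite way. The share of all genes with this pattern is not given, and with 3 mice a genotype it can arise without any difference. Against WT the listed genes were Ccl25, a thymic chemokine (difference of responses 0.709), Lyplal1 (0.628) and the chromatin organiser Satb1 (−0.218). Against ElkSapKO they were Col1a2, a collagen chain (0.711), the interferon Ifnb1 (0.835) and the granulocyte protease Elane (0.248), and against SapKO Elk1 itself (0.321). With ElkKO numbers 1 and 2 exchanged, 5 of the 7 genes still moved one way in all 3 ElkKO pairs, and Elane and Elk1 did not. None of these 7 differences passed in limma, and most of the genes lie near or below background. Among probe sets with no gene symbol, 19 were called in the ElkKO response, 18 of them higher, by up to 2.11 on the log2 scale. They enter no gene count above.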

How the results depend on the processing

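Of the 35 named calls, 15 held under all 15 alternatives, and none changed direction. The count of genes that rose, 36, was 135 with array weights and 21 to 37 with one ElkKO array left out (21 without untreated 2 or untreated 3, 23 without stimulated 2). The count that fell, 1, was 3 with the replicate block, 5 with the block and numbers 1 and 2 exchanged, 51 with array weights, 7 without untreated ElkSapKO array 2 (when 47 rose), and 2 with averaged probe sets, the median-level filter or the trended prior. It was 0 to 2 with one ElkKO array left out. Response differences from WT numbered 0 throughout. Those from SapKO were 2 with array weights, 1 with averaged probe sets and 0 to 1 with one array left out. Those from ElkSapKO were 8, 1 and 0 to 1. Probe sets that rose (65) were 98 with the block, 111 with the exchanged block, 213 with array weights, 99 without untreated ElkSapKO array 2 and 34 to 65 with one ElkKO array left out. Those that fell (3) were 9, 14, 63, 9 and 0 to 2, and 1 with the trended prior. The Egr3 differences of response were also lost with median-centred arrays (adjusted p = 0.0812 and 0.126), and the one from ElkSapKO with the 2 genotypes alone (0.983). The leave-one-out fits hold fewer samples and the block fits fewer residual degrees of freedom. For the other settings the cause was not tested. Signals near background limit folds of dim genes.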
